A study of Mus musculus with 12 samples.

Results

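Leukocytes leave the blood in ordered steps, and 9 genes that carry these steps were followed by symbol among the 54532 genes counted in mouse colon. The vessel side held 5 of them (Icam1, Vcam1, Madcam1, Sele and Selp) and the leukocyte side the other 4 (Itgal, Itgam, Itgb2 and Selplg). Total RNA of 12 colon tissues of male C57BL/6 mice was sequenced, 3 tissues per group, from animals supplied at 6 weeks of age and adapted for a week. Con mice received no DSS. DSS (dextran sulfate sodium, a polymer that injures the colon epithelium) was given to the other 3 groups for 5 days, as a 3% (w/v) solution to drink. UA (ursolic acid, a plant triterpenoid) was given by gavage at 200 mg/kg once daily, starting 1 day before DSS in UA+DSS and 3 days after the start of DSS in DSS+UA. UA lasted 7 days in UA+DSS and 4 days in DSS+UA by the methods, but 9 and 5 days by the discussion. Con and DSS mice were gavaged with vehicle by the methods, whereas the labels call Con untreated. DSS colitis is a chemical injury of a few days, and the mice carried no transgene. The RNA came from whole colon tissue, so for every value below fewer cells of a type and less RNA per cell cannot be told apart.

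In the textbook sequence, selectins on activated endothelium catch the passing cell and let it roll, and the sialylated glycoprotein encoded by Selplg is their main ligand on leukocytes. Chemokines then switch the integrins of the rolling cell to a state of high affinity, and these bind immunoglobulin-type receptors on the vessel wall. Endothelium in most tissues shows little E-selectin or VCAM until cytokines such as TNF or IL1 induce them through NF-kB, whereas the venules of the gut also display Madcam1, which directs lymphocytes to the intestine.

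The promoters of 5 members (Icam1, Madcam1, Sele, Selp and Itgam) were found in the RefSeq table of GRCm38.p6. The 250 bases before each start site were searched on both strands for a NF-kB (kappaB) motif, GGNNTTTCC, which 4.93% of the 32851 promoters in that table held. It occurred in Icam1, Madcam1 and Selp, and these 3 windows are shown because they hold the motif and their genes are all on the vessel side. Capitals mark the matches, all 5 of which lay on the strand opposite to the gene. The windows are chr9:21015690-21015939 for Icam1, chr10:79664309-79664558 for Madcam1 and chr1:164115014-164115263 for Selp, all on the plus strand.
Icam1: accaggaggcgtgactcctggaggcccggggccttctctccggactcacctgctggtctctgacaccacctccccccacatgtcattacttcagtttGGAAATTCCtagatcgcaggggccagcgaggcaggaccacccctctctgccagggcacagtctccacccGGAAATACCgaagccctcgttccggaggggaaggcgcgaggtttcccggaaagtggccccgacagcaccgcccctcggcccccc
Madcam1: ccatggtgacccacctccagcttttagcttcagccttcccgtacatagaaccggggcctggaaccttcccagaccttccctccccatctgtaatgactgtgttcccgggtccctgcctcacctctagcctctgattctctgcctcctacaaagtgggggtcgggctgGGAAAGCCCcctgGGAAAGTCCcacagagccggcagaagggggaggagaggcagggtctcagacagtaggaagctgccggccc
Selp: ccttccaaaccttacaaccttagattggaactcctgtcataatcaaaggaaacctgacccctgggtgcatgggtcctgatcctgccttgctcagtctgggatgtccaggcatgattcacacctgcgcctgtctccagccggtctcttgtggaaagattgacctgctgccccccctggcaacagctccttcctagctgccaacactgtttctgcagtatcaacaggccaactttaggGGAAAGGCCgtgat

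In Icam1 the matches began 153 and 84 bases before the start site of the RefSeq table. In Madcam1 they began 83 and 70 bases before it, and in Selp the match began 14 bases before it. The Icam1 window ends at chr9:21015939, upstream of the gene start at chr9:21015985 given below, so distances from that gene start are larger. The more distant Icam1 match also fitted a stricter kappaB form, GGAAATTCC, that 0.286% of promoters held. Neither kappaB form was found in the Sele and Itgam windows. A PU.1 motif (GAGGAAGT), bound by a transcription factor of myeloid cells, was in none of the 5 windows, against 2.44% of all promoters. A match or its absence describes these letters only.

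Values are CPM (counts scaled to 1 common library size with TMM factors of edgeR), and a gene was called changed at an adjusted p under 0.05 of edgeR's quasi-likelihood test (Benjamini-Hochberg over 17658 tested genes). Total counts per library were 15566216 to 19498383. Libraries are named by group and replicate, and values of a group are given in the order of replicates 1, 2 and 3. The DSS 2 library stood apart by leukocyte transcripts, with 2228 CPM summed over 6 pan-leukocyte markers against 872 in DSS 1 and 419 in DSS 3. Transcripts that mark the epithelium of the colon were plentiful in every library (4553 to 17680 CPM summed over 6 markers). The libraries also differed in a colon position score, the mean log2 CPM of 5 Hox genes of the distal colon minus that of 6 Hox genes of the proximal colon. It was 0.366 to 3.10 in DSS, 4.11 to 5.06 in DSS+UA, -5.70 to -4.16 in UA+DSS and -3.03 to 5.53 in Con, so that the UA+DSS libraries lay apart from those of the other 3 groups.

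In Con the vessel receptors were expressed at moderate levels and the vascular selectins were scarce. Per kilobase of exon, mean CPM in Con ran from 3.53 for Itgb2 through 2.09 (Selplg), 1.94 (Madcam1), 1.82 (Icam1), 1.50 (Vcam1), 1.38 (Itgal) and 1.06 (Itgam) to 0.246 for Selp and 0.0123 for Sele. The ranges of neighbours from Itgb2 to Itgam overlapped, while Selp lay below Itgam and Sele below Selp in every Con library. In DSS the order began with Itgb2 (66.6 CPM per kilobase), Selplg (31.9) and Icam1 (17.3), and Selp had come up to 11.8, a range that overlapped that of Madcam1 (12.4). Sele remained the scarcest in DSS, at 2.15 CPM per kilobase.

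**Figure D1:**
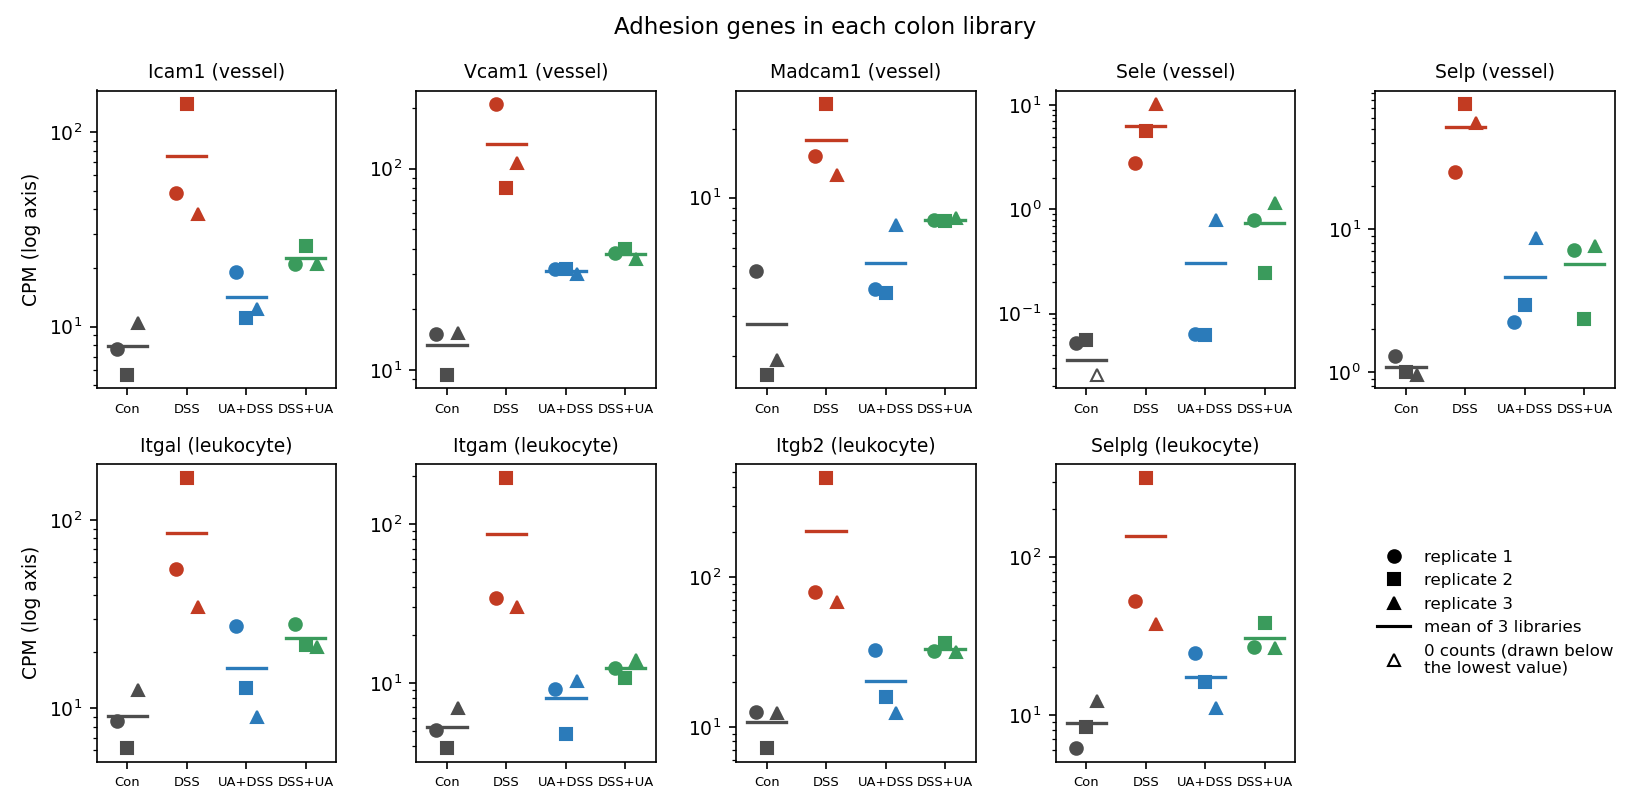
Each panel plots the CPM (log axis) of 1 gene in the 12 colon libraries by group, with a marker for each replicate and a line at the mean of 3 libraries; the Con library in which Sele had 0 counts is drawn open below the lowest value. Every DSS library lies above every Con library in all 9 panels, and DSS 2 is far above DSS 1 and DSS 3 in the 4 leukocyte panels but not for Vcam1 or Sele.

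Icam1 (ENSMUSG00000037405, chr9:21015985-21028817, plus strand, GRCm38) encodes the receptor on endothelium and other cells that binds the integrins made with Itgb2. It stood at 7.71, 5.66 and 10.4 CPM in Con and at 48.8, 139 and 37.9 CPM in DSS. In UA+DSS it was 19.1, 11.1 and 12.3 CPM, and in DSS+UA 20.9, 25.8 and 21.0 CPM. The 4 groups did not overlap, in the order Con, UA+DSS, DSS+UA and DSS. Icam1 rose in DSS against Con (log2 fold change 3.25 ± 0.47, SE, adjusted p = 0.00244) and was lower in UA+DSS (-2.41 ± 0.46, adjusted p = 0.0116) and in DSS+UA (-1.74 ± 0.44, adjusted p = 0.0431) than in DSS. It was still above Con in DSS+UA (1.51 ± 0.45, adjusted p = 0.0411), whereas the difference of 0.84 ± 0.44 between UA+DSS and Con was not called (adjusted p = 0.470).

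Vcam1 (ENSMUSG00000027962, chr3:116109949-116129688, minus strand) encodes the receptor for the integrin of Itga4 and Itgb1. It stood at 15.2, 9.48 and 15.2 CPM in Con and at 209, 79.6 and 107 CPM in DSS. The UA groups were narrow, with UA+DSS at 31.7, 31.8 and 29.9 CPM and DSS+UA at 38.1, 39.8 and 35.4 CPM. No group overlapped another, and the highest library was DSS 1, in which the leukocyte genes were far below those of DSS 2. Vcam1 rose in DSS (3.31 ± 0.33, adjusted p = 0.000833) and was lowered in UA+DSS (-2.08 ± 0.31, adjusted p = 0.00749) and DSS+UA (-1.80 ± 0.31, adjusted p = 0.0145) against DSS. Against Con it was raised in DSS+UA (1.51 ± 0.31, adjusted p = 0.0111). In UA+DSS the value was 1.23 ± 0.31 with an adjusted p of 0.230, and DESeq2 called that difference (adjusted p = 0.0180).

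Madcam1 (ENSMUSG00000020310, chr10:79664559-79668537, plus strand) encodes the address receptor of gut venules for the integrin of Itga4 and Itgb7. It stood at 4.76, 1.66 and 1.93 CPM in Con and at 15.2, 25.8 and 12.5 CPM in DSS. In UA+DSS it was 3.98, 3.81 and 7.60 CPM, which overlapped Con, and in DSS+UA 7.95, 7.86 and 8.09 CPM, which overlapped no other group. The rise in DSS was 2.68 ± 0.45 (adjusted p = 0.00347), the smallest among the 9 genes. Madcam1 was lowered in UA+DSS (-1.79 ± 0.44, adjusted p = 0.0200), and DSS+UA differed from DSS by -1.16 ± 0.43 without passing the threshold (adjusted p = 0.102). It was raised in DSS+UA against Con (1.51 ± 0.44, adjusted p = 0.0371). Without Con 1, the highest Con library, the differences to Con were 3.31 in DSS and 2.15 in DSS+UA.

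Sele (ENSMUSG00000026582, chr1:164048234-164057677, plus strand) encodes E-selectin, which endothelium makes only on activation. Its counts were 1, 1 and 0 in Con, 58, 114 and 195 in DSS, 1, 1 and 15 in UA+DSS and 15, 4 and 21 in DSS+UA. Sele was thus close to absent in Con and in 2 of 3 UA+DSS libraries, and the third UA+DSS library reached the range of DSS+UA. Per summed depth, Sele was 172 times higher in DSS than in Con (95% interval 47.4 to 1429, which covers counting error only). The ratio to Con was 21.1 (5.47 to 180.1) for DSS+UA and 9.46 (2.24 to 84.4) for UA+DSS, and without UA+DSS 3 the latter was 1.78 (0.129 to 24.5). Sele rose in DSS (adjusted p = 0.00300) and was lower than in DSS in UA+DSS (-4.26 ± 0.90, adjusted p = 0.0145) and DSS+UA (-3.07 ± 0.83, adjusted p = 0.0478). It was raised in DSS+UA against Con (adjusted p = 0.0364), with an adjusted p of 0.400 in UA+DSS.

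Selp (ENSMUSG00000026580, chr1:164115264-164150026, plus strand) encodes P-selectin, which endothelium and platelets store in granules and bring to the surface within minutes. It stood at 1.29, 1.00 and 0.96 CPM in Con and at 25.1, 75.2 and 55.2 CPM in DSS. In UA+DSS it was at 2.25, 2.94 and 8.72 CPM, and DSS+UA had 7.11, 2.35 and 7.65 CPM. The UA groups overlapped each other and lay between Con and DSS. Selp rose by 5.57 ± 0.69 in DSS (adjusted p = 0.00136), a 47.5-fold difference, and was lowered in UA+DSS (-3.47 ± 0.62, adjusted p = 0.0101) and DSS+UA (-3.18 ± 0.61, adjusted p = 0.0208). Against Con it was raised in DSS+UA (2.39 ± 0.63, adjusted p = 0.0273), and in UA+DSS the value was 2.09 ± 0.63 (adjusted p = 0.280, and 0.0308 by DESeq2). Platelet markers moved less clearly. Of 9 such genes 4 were tested and Ppbp and Pf4 were raised in DSS, while the lineage-defining Itga2b (0.55, adjusted p = 0.395) and Gp1ba (-0.33, adjusted p = 0.691) were not called. The part of platelets in Selp was not tested.

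Itgb2 (ENSMUSG00000000290, chr10:77530252-77565708, plus strand) encodes the beta chain shared by the leukocyte integrins. It stood at 12.6, 7.21 and 12.5 CPM in Con, rose to 79.7, 462 and 67.9 CPM in DSS and came to 32.8, 15.9 and 12.4 CPM with early UA (UA+DSS) and to 32.0, 36.1 and 31.6 CPM with late UA (DSS+UA). DSS did not overlap the other groups, and UA+DSS overlapped both Con and DSS+UA. Itgb2 rose by 4.24 ± 0.74 in DSS (adjusted p = 0.00432) and was lowered in UA+DSS (-3.32 ± 0.71, adjusted p = 0.0155) and DSS+UA (-2.61 ± 0.69, adjusted p = 0.0469) against DSS. Against Con the values were 0.92 ± 0.67 in UA+DSS (adjusted p = 0.578) and 1.63 ± 0.68 in DSS+UA (adjusted p = 0.111).

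Itgal (ENSMUSG00000030830, chr7:127296260-127335138, plus strand) encodes the alpha chain of LFA-1, carried by lymphocytes and most other leukocytes. It stood at 8.53, 6.16 and 12.5 CPM in Con and at 54.8, 168 and 34.4 CPM in DSS. In UA+DSS it was 27.5, 12.9 and 9.04 CPM, a spread that overlapped Con, and in DSS+UA 28.0, 21.6 and 21.1 CPM. Itgal rose in DSS (3.24 ± 0.61, adjusted p = 0.00576) and was lowered in UA+DSS against DSS (-2.38 ± 0.59, adjusted p = 0.0228). DSS+UA differed from DSS by -1.87 ± 0.58 (adjusted p = 0.0690) and from Con by 1.38 ± 0.58 (adjusted p = 0.115).

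Itgam (ENSMUSG00000030786, chr7:128062640-128118491, plus strand) encodes the alpha chain of Mac-1, typical of neutrophils, monocytes and macrophages. It stood at 5.07, 3.88 and 6.95 CPM in Con and at 34.4, 196 and 29.9 CPM in DSS. In UA+DSS it was 9.11, 4.75 and 10.3 CPM, which overlapped Con, and in DSS+UA 12.4, 10.7 and 13.9 CPM. Itgam rose by 4.03 ± 0.71 in DSS (adjusted p = 0.00431) and was lowered in UA+DSS (-3.43 ± 0.69, adjusted p = 0.0134) and DSS+UA (-2.82 ± 0.67, adjusted p = 0.0367). The DSS+UA difference to Con, 1.22 ± 0.65, was not called (adjusted p = 0.202). Its counts are uncertain, because Gm49368 overlaps it on the same strand and shares 66.3% of its stretches of 50 bases. Gm49368 itself had 0 to 12 counts per library.

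Selplg (ENSMUSG00000048163, chr5:113818536-113832644, minus strand) encodes PSGL-1, the leukocyte ligand of the selectins. It stood at 6.15, 8.32 and 12.3 CPM in Con and at 52.7, 319 and 37.9 CPM in DSS. In UA+DSS it was 24.8, 16.2 and 11.1 CPM, and in DSS+UA 26.9, 38.4 and 26.6 CPM. UA+DSS overlapped Con, and DSS+UA 2 was slightly above DSS 3. Selplg rose by 3.94 ± 0.76 in DSS (adjusted p = 0.00621) and was lowered in UA+DSS (-2.97 ± 0.73, adjusted p = 0.0220). DSS+UA differed from DSS by -2.16 ± 0.70 (adjusted p = 0.0778) and from Con by 1.78 ± 0.71 (adjusted p = 0.0984). Antisense transcripts overlap Icam1, Vcam1 and Selp, and had 0 to 5 counts in any library.

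**Figure D2:**
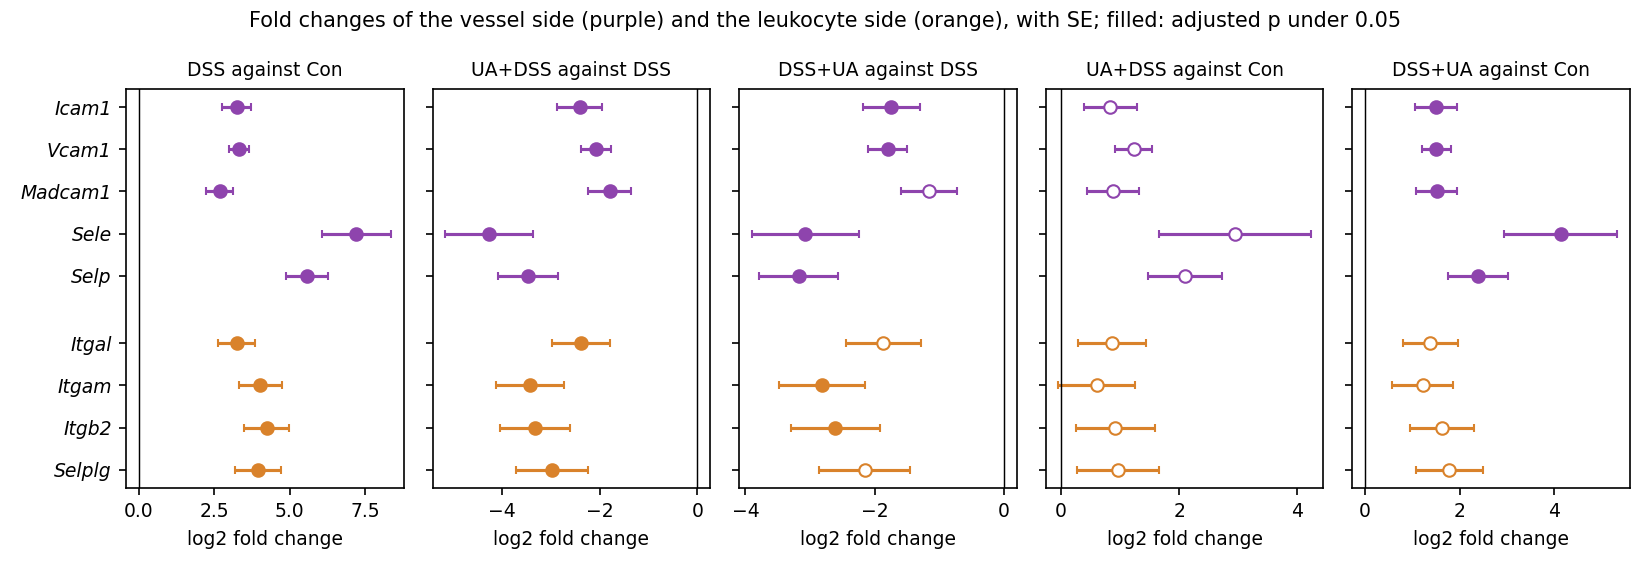
Log2 fold changes (horizontal axis, with SE bars) of the 9 genes in 5 comparisons from the fit of all 12 libraries; vessel genes are purple, leukocyte genes orange, and filled points passed an adjusted p under 0.05. All 9 points are filled for DSS against Con and for UA+DSS against DSS, 6 for DSS+UA against DSS, none for UA+DSS against Con and the 5 vessel genes for DSS+UA against Con.

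The comparison of DSS with Con asks what the injury did to the adhesion genes. All 9 were raised, against 13.9% of all tested genes raised, and the median log2 fold change was 3.94 for the members and -0.03 for all tested genes. No member overlapped between the groups, and 21.2% of all tested genes were higher without overlap. Selp and Sele changed most, at 5.57 and 7.20 on the log2 scale. The leukocyte side leaned on DSS 2. Its level there was 8.42 times that of DSS 3 for Selplg, 6.81 times for Itgb2, 6.56 times for Itgam and 4.88 times for Itgal. Vcam1 instead was highest in DSS 1 and Sele in DSS 3. Without DSS 2 all 9 genes were still raised, with log2 fold changes of 2.77 for Itgb2, 2.60 for Itgam, 2.35 for Selplg and 2.30 for Itgal, and of 2.45 for Icam1, 2.31 for Madcam1, 3.57 for Vcam1, 5.20 for Selp and 7.26 for Sele.

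UA+DSS against DSS asks what early UA changed. All 9 genes were lowered, against 10.5% of all tested genes lowered, by 1.79 (Madcam1) to 4.26 (Sele) on the log2 scale, with a median of -2.97 for the members and -0.02 for all tested genes. None of the 9 overlapped between the groups, and 21.7% of all tested genes were lower without overlap. Folds and calls depended on single libraries. Without DSS 2 the log2 differences were -2.00 for Itgam, -1.86 for Itgb2, -1.62 for Icam1, -1.44 for Itgal and -1.39 for Selplg, and the Madcam1 and Itgal calls were lost. Without UA+DSS 2 the folds changed little (-2.26 for Icam1 and -3.23 for Selp, for example), but only Vcam1 remained called (adjusted p = 0.0402), with Selp at 0.0577, Icam1 at 0.0636 and the other 6 genes at 0.0704 to 0.102. Without UA+DSS 3 the Itgal (-2.09), Itgb2 (-3.06) and Selplg (-2.74) calls were lost, while Sele came to -6.48 and Selp to -4.32. Over all tested genes 1850 were lowered in the fit of all 12 libraries. That number was 1110 without DSS 2, 91 without UA+DSS 2 and 743 without UA+DSS 3. The colon position score separated UA+DSS from DSS, so that UA and the sampled colon position cannot be told apart in this comparison. The DSS+UA libraries also lay apart from DSS in the score, and the same limit holds for DSS+UA against DSS. With the score as a covariate none of the 9 passed, and 1 of all tested genes was lowered. The log2 differences were then -4.34 for Sele, -3.62 for Selplg, -3.39 for Itgam, -3.23 for Selp, -3.10 for Itgb2, -2.47 for Itgal, -2.40 for Icam1, -1.55 for Vcam1 and -0.68 for Madcam1, with adjusted p from 0.132 to 0.433. In DSS against Con all 9 genes still passed with that covariate.

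DSS+UA against DSS asks what late UA changed. Itgb2, Vcam1, Icam1, Itgam, Selp and Sele were lowered, 6 of 9, against 5.0% of all tested genes lowered, and the median was -2.16 for the members and 0.02 for all tested genes. The values of the other 3 were also negative, at -1.16 for Madcam1, -1.87 for Itgal and -2.16 for Selplg. Without DSS 2 the differences were smaller, at -1.37 for Itgam, -1.14 for Itgb2, -0.93 for Icam1, -0.91 for Itgal and -0.55 for Selplg. For 8 members (Selplg excepted) the groups did not overlap, and 16.4% of all tested genes were lower without overlap. The count of members called fell to 0 without DSS+UA 2 or DSS+UA 3, and to 3 without UA+DSS 3. It was 2 without Con 2, DSS 2, UA+DSS 1, UA+DSS 2 or DSS+UA 1. Over all tested genes the number lowered fell too, from 883 to 142 without DSS+UA 2 and 25 without DSS+UA 3. It was 472 without UA+DSS 3, and 367 to 690 without Con 2, DSS 2, UA+DSS 1, UA+DSS 2 or DSS+UA 1. With the position score as a covariate 1 member and 171 of all tested genes were lowered. DESeq2 lowered all 9 members and 1900 of all tested genes.

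Against Con, UA+DSS left no member called, where 0.00566% of all tested genes were raised and 3 members (Vcam1, Selp and Sele) had an unadjusted p under 0.05. DESeq2 called 2 members, Vcam1 and Selp, and raised 175 of all tested genes, while limma-voom called 0 members. All 9 values were positive, from 0.60 (Itgam) to 2.95 (Sele). The position score also separated UA+DSS from Con, so treatment and sampled colon position cannot be told apart in that comparison. Icam1, Vcam1 and Selp did not overlap Con, against 9.62% of all tested genes higher without overlap, and the 4 leukocyte genes and Madcam1 overlapped it. For Sele, 2 of the UA+DSS libraries had 1 count each, as had 2 of the Con libraries, so the groups were not separated. In DSS+UA against Con the calls split by side, while the sizes of the differences overlapped between the sides. All 5 vessel genes were raised, against 9.13% of all tested genes, and none of the 4 leukocyte genes was called, although 3 of them (Itgb2, Itgal and Selplg) had an unadjusted p under 0.05. DESeq2 called 2 leukocyte genes, Itgb2 and Selplg, and limma-voom 0. On the log2 scale the differences were 1.51, 1.51, 1.51, 2.39 and 4.13 for the vessel genes Vcam1, Icam1, Madcam1, Selp and Sele and 1.22 to 1.78 for the leukocyte genes. All 9 genes were higher in DSS+UA than in Con without overlap, against 19.8% of all tested genes. The position score was -3.03 in Con 2 and -1.83 in Con 3, below every DSS+UA library, and 5.53 in Con 1. Treatment and sampled colon position therefore cannot be fully told apart in this comparison either. The difference between the sides was not tested, and without DSS 2 all 9 were called. The members called were 1 without Con 2, Con 3, DSS+UA 1 or DSS+UA 3, 2 without Con 1, 3 without DSS+UA 2 and 0 with the position score as a covariate. Over all tested genes 1613 were raised, and 628 to 921 without Con 2, Con 3, DSS+UA 1 or DSS+UA 3. That number was 1682 without Con 1, 1237 without DSS+UA 2, 2117 without DSS 2, 2286 with DESeq2 and 996 with the position score. Between the UA groups no member was called by edgeR, DESeq2 or limma-voom and none had an unadjusted p under 0.05. The position score separated these groups, at 4.11 to 5.06 in DSS+UA and -5.70 to -4.16 in UA+DSS. The timing of UA and the sampled colon position therefore cannot be told apart here. DSS+UA was higher by 0.28 (Vcam1) to 1.19 (Sele) on the log2 scale, with adjusted p from 0.307 to 0.749, where 9.23% of all tested genes were raised. Without UA+DSS 3 the differences were 3.42 for Sele (adjusted p = 0.0596) and 1.15 for Selp (adjusted p = 0.198).

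**Figure D3:**
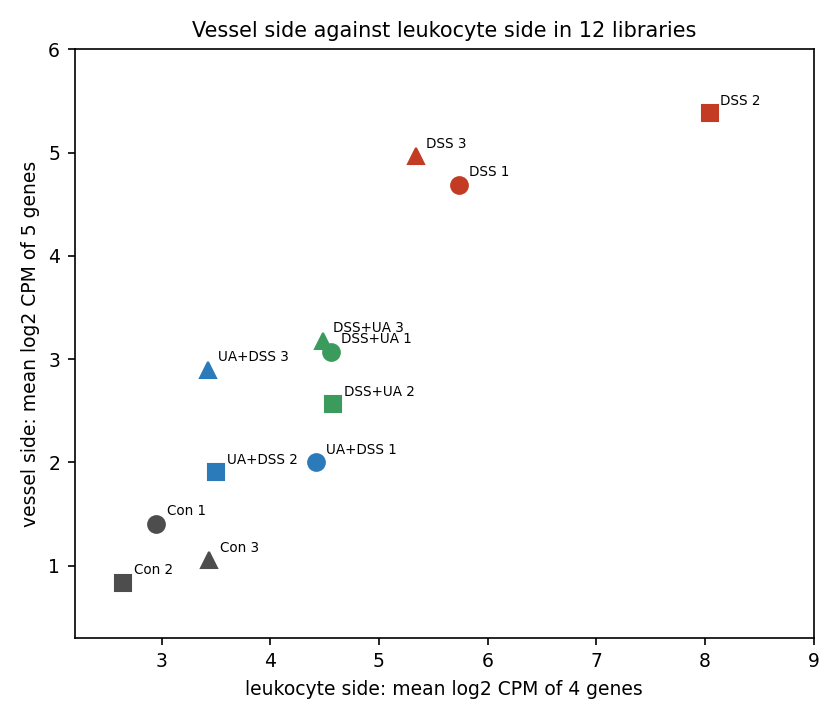
Mean log2 CPM (prior count 2) of the 5 vessel genes against that of the 4 leukocyte genes in the 12 libraries, coloured by group, with a marker shape for each replicate. DSS 2 lies at 8.05 on the leukocyte axis, far to the right of DSS 1 and DSS 3, while the 3 DSS libraries span 4.69 to 5.38 on the vessel axis.

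Averaged over each side as mean log2 CPM, the vessel side was 1.10 ± 0.29 in Con, 5.01 ± 0.35 in DSS, 2.27 ± 0.55 in UA+DSS and 2.94 ± 0.33 in DSS+UA (SD, n = 3). The leukocyte side was 3.01 ± 0.40 in Con, 6.37 ± 1.46 in DSS, 3.78 ± 0.55 in UA+DSS and 4.54 ± 0.05 in DSS+UA. The averaged vessel level thus varied less than the leukocyte level between DSS libraries. It averages genes that peaked in different DSS libraries, Vcam1 in DSS 1, Sele in DSS 3 and the others in DSS 2. Singly, the vessel genes spread 2.06-fold (Madcam1) to 3.69-fold (Sele) within DSS, and the leukocyte genes 4.88-fold (Itgal) to 8.42-fold (Selplg). DSS exceeded Con by 3.91 on the vessel side and by 3.36 on the leukocyte side, and UA+DSS lay below DSS by a difference of -2.75 and -2.59. The vessel side minus the leukocyte side was -2.39 to -1.54 in Con, -2.66 to -0.37 in DSS, -2.42 to -0.53 in UA+DSS and -2.02 to -1.31 in DSS+UA, so that all 4 groups overlapped in this difference. Within UA+DSS different libraries led the sides. UA+DSS 3 had the highest vessel level (2.90) and the lowest leukocyte level (3.43), and UA+DSS 1 the highest leukocyte level (4.42) with a vessel level of 2.0. UA+DSS 2 had 1.90 on the vessel side and 3.50 on the leukocyte side.

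Each side was then set against markers of the cells that carry it. Summed CPM of 15 endothelial markers was 403 to 514 in Con, 558 to 1004 in DSS, 312 to 360.5 in UA+DSS and 257 to 263 in DSS+UA. Of these markers 7 were raised in DSS, among them Pecam1 (1.14, adjusted p = 0.00282) and the junction cadherin Cdh5 (1.41, adjusted p = 0.00757), and 7 were lowered in DSS+UA against Con. The vessel genes moved differently from the vessel markers, and most clearly in DSS+UA, where the vessel genes were above Con and the markers below it. Per 100 CPM of endothelial markers, Vcam1 was 3.76, 1.84 and 3.65 in Con, 37.4, 7.93 and 15.1 in DSS, 8.79, 10.1 and 9.58 in UA+DSS and 14.5, 15.5 and 13.5 in DSS+UA. Selp was 0.194 to 0.321 in Con, 4.50 to 7.80 in DSS, 0.623 to 2.79 in UA+DSS and 0.915 to 2.93 in DSS+UA on the same scale. In UA+DSS and DSS+UA the summed markers lay below Con without overlap, so a gene of unchanged CPM would have a higher ratio in both groups. In DSS+UA the ratios of Icam1 (7.93 to 10.04) and Vcam1 overlapped those of DSS, and that of Madcam1 (3.02 to 3.10) exceeded DSS (1.77 to 2.72), while Selp lay below DSS, as did Sele (0.0963 to 0.445 against 0.500 to 1.46). Icam1 and Vcam1 are also made by other cells, among them stromal cells and macrophages, and the stromal markers Pdgfra (1.45, adjusted p = 0.00250) and Dcn (1.94, adjusted p = 0.00392) rose in DSS too. Summed CPM of 6 stromal markers was 1068 to 1825 in Con, 3197 to 6930 in DSS, 608 to 1636 in UA+DSS and 949 to 2340 in DSS+UA. The part of these cells in the Icam1 and Vcam1 values was not tested.

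**Figure D4:**
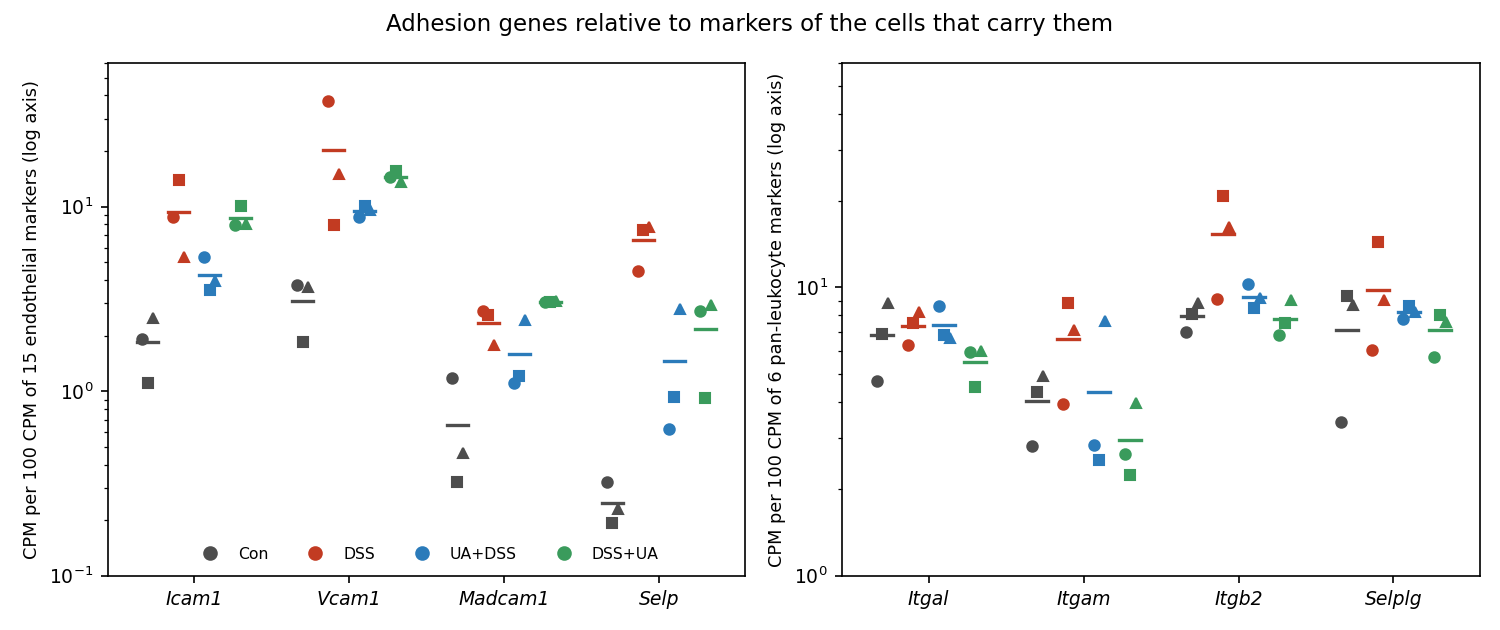
CPM of 4 vessel genes per 100 CPM of 15 summed endothelial markers (left) and of the 4 leukocyte genes per 100 CPM of 6 summed pan-leukocyte markers (right), on log axes, by group, with a marker for each replicate (circle 1, square 2, triangle 3) and a line at the mean. The vessel ratios of DSS and DSS+UA lie above Con, as do those of UA+DSS except for Madcam1. The leukocyte ratios of the groups overlap Con except for Itgb2 in DSS.

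The markers of all leukocytes moved in the direction of the leukocyte genes in DSS. Summed CPM of 6 pan-leukocyte markers was 89.4 to 180.1 in Con, 419 to 2228 in DSS, 135 to 319.9 in UA+DSS and 349.7 to 480.2 in DSS+UA. All 6 were raised in DSS, with a median log2 fold change of 3.12 beside 3.98 for the 4 leukocyte members. Ptprc (CD45) was raised by 3.16 (adjusted p = 0.00612) and Laptm5 by 3.08 (adjusted p = 0.00196). Per 100 CPM of these markers Itgal was 4.74, 6.89 and 8.85 in Con and 6.29, 7.55 and 8.22 in DSS, and Selplg was 3.42, 9.31 and 8.66 in Con and 6.04, 14.3 and 9.04 in DSS. The ratios of Itgal, Itgam and Selplg overlapped Con in all 3 DSS-treated groups. That of Itgb2 was 7.01, 8.07 and 8.81 in Con and 9.15, 20.7 and 16.2 in DSS, without overlap, and overlapped Con again in UA+DSS and DSS+UA. In DSS+UA the ratios of Itgb2 (6.82 to 9.04) and Itgal (4.50 to 6.03) lay below DSS without overlap. None of the 6 markers was lowered in DSS+UA against DSS (median -1.36), beside 2 of the 4 leukocyte members (median -2.38) and 5.0% of all tested genes. Without DSS 2 neither of these 2 members was called, with Itgam at -1.37 (adjusted p = 0.0554) and Itgb2 at -1.14 (adjusted p = 0.117).

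The alpha chains gave different pictures of the DSS libraries. The ratio of Itgam to Itgal per kilobase was 0.726 to 0.825 in Con and 0.820, 1.53 and 1.14 in DSS, with the highest value in DSS 2. The ratio of Itgam to its partner chain Itgb2 was nearly constant in DSS, at 0.262, 0.258 and 0.268. In UA+DSS these ratios spread widely, with 0.433, 0.482 and 1.49 for Itgam to Itgal. The neutrophil markers, 10 genes of which 9 were raised in DSS, summed to 9.65 to 115 CPM in Con, 933, 18600 and 1028 CPM in DSS, 29.6 to 129.5 CPM in UA+DSS and 409.8 to 1034 CPM in DSS+UA. Ly6g made up 112.5 CPM of the sum in Con 1 and 273.7 CPM of that in DSS+UA 2, and at 273.7 to 390.1 CPM in DSS+UA and 189.8 to 300.5 CPM in DSS it overlapped between these groups. S100a8, a calcium-binding protein of neutrophils, had 221, 6821 and 317 CPM in the DSS libraries and 260.5, 48.8 and 271 CPM in DSS+UA. Macrophage and monocyte markers (7 of 10 raised in DSS) summed to 112 to 209 CPM in Con and 554 to 3025 CPM in DSS, and T cell markers (8 of 10 raised) to 25.6 to 37.9 and 51.5 to 160.5 CPM. B cell markers summed to 16.4 to 129 CPM in Con and 84.0 to 395 CPM in DSS, and 1 of 9 was raised. The share of each cell type in the leukocyte members was not tested.

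Around the members, the other adhesion genes of vessels moved less. Of 15 such genes 6 were raised and 1 lowered in DSS, with a median log2 fold change of 0.78. Pecam1, Vwf (0.95, adjusted p = 0.00331), Cd47 (1.27, adjusted p = 0.00382) and the venular chemokine receptor Ackr1 (1.97, adjusted p = 0.00502) were among the raised. Of them 8 were lowered in UA+DSS and 8 in DSS+UA against DSS. Vwf, the adhesive protein stored beside P-selectin, fell below Con in DSS+UA (-0.88, adjusted p = 0.00722), where Selp was above it.

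Among 14 other integrin genes 6 were raised in DSS and none lowered, with a median of 0.84. Itga4 (1.53, adjusted p = 0.0152) and Itgb7 (1.47, adjusted p = 0.0302), which form the partner of Madcam1, both rose, as did Itgax (1.97, adjusted p = 0.0169), another partner of Itgb2. These rises were smaller than those of the 9 members, of which Madcam1 had the smallest at 2.68. Itga4 was lowered in DSS+UA (-1.58, adjusted p = 0.0374), and in UA+DSS its value was -1.13 (adjusted p = 0.0581). Itgb7 was not called in UA+DSS (-0.85, adjusted p = 0.186) or DSS+UA (-0.60, adjusted p = 0.366). The machinery that activates integrins was raised in 9 of 12 genes. Fermt3, the kindlin of blood cells, rose by 1.97 (adjusted p = 0.00468), the adaptor Fyb by 2.88 (adjusted p = 0.00608) and Tln1, which links integrins to actin, by 1.27 (adjusted p = 0.00669). Of these 12 genes 7 were lowered in UA+DSS and 2, Fyb and Tln1, in DSS+UA against DSS.

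The genes that build selectin ligands did not move as a group. Of 13 genes 12 were tested, of which 4 were raised and 3 lowered in DSS, with a median of -0.21. The tyrosine sulfotransferases Tpst2 (0.83, adjusted p = 0.00575) and Tpst1 (1.00, adjusted p = 0.0165), whose product PSGL-1 needs for binding P-selectin, were raised by far less than Selplg. Among other genes of selectin ligands, the leukocyte sialoglycoprotein gene Spn (2.30, adjusted p = 0.0135) and Cd44 (1.82, adjusted p = 0.0280), whose product binds hyaluronan and E-selectin, were raised in DSS.

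Cytokines known to induce the vascular receptors rose with them. Of 12 such genes 10 were tested and 8 were raised in DSS, with a median of 4.87. Il33 rose by 4.03 (adjusted p = 0.00135), from 2.66 to 9.0 CPM in Con to 75.4, 91.9 and 89.8 CPM in DSS, and was lowered in UA+DSS (-3.14, adjusted p = 0.00800) and DSS+UA (-2.10, adjusted p = 0.0285). Il1b was 119.9, 3011 and 149.5 CPM in DSS, with its peak in DSS 2, and 68.0 to 170.5 CPM in DSS+UA, which overlapped DSS. Of the 10 tested cytokines 7 were lowered in UA+DSS and 2 in DSS+UA against DSS. Of 11 genes of the NF-kB pathway 8 were raised in DSS (median 1.92), among them Rel (2.19, adjusted p = 0.00372) and Nfkb2 (1.63, adjusted p = 0.00586). Of these 11 genes 7 were lowered in UA+DSS and none in DSS+UA against DSS.

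Markers of the remaining tissue gave the setting of these changes. Of 6 lymphatic markers 5 were tested and 3 were raised in DSS, Pdpn (2.48, adjusted p = 0.00133), Lyve1 (1.41, adjusted p = 0.0214) and Flt4 (1.38, adjusted p = 0.0404), and all 3 were lowered in UA+DSS against DSS. None of 5 smooth muscle markers was called in DSS against Con, while Myh11 (-2.05, adjusted p = 0.0199) and Des (-1.94, adjusted p = 0.0270) were lowered in DSS+UA against Con. Of 6 epithelial markers 2 were lowered in DSS, Epcam (-0.93, adjusted p = 0.0234) and the mucin gene Muc2 (-2.58, adjusted p = 0.0412). In UA+DSS against DSS 5 of 6 proximal Hox genes were raised and 2 of 5 distal Hox genes lowered. The part of any of these tissues in the values of the members was not tested.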

How the data were processed

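Total RNA of 12 mouse colon tissues (4 groups of 3, grouped by the sample labels) was made into libraries with the TruSeq RNA kit and sequenced on a HiSeq-2500. The authors checked the reads with FastQC, mapped them to GRCm38 and counted genes with Hisat2, and the submitters' processing notes also name Cuffdiff. What the authors deposited are raw counts, whole numbers for each Ensembl gene without normalization. For versions, annotation, use of strand and the treatment of multiply matching reads, the entry is not given in the sources used here. The labels name Trizol for the RNA and the methods the RNeasy kit.

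Counts were fitted with edgeR 4.0.16 in R 4.3.3. filterByExpr kept 17658 genes holding 99.8% of the counts, TMM factors were 0.871 to 1.09, and 1 robust quasi-likelihood model with a term for group was fitted to all 12 libraries (biological coefficient of variation 0.352). P-values were adjusted by Benjamini-Hochberg over all tested genes and called under 0.05. The 123 of 54532 genes without a name in the annotation held 0.0297% of the counts. Log2 CPM used a prior count of 2. Intervals of Sele ratios are exact binomial 95% intervals and cover counting error only. Averages per side and ratios to markers were computed per library, with no p. The methods speak of 3 colonic tissues per group and do not say that each came from its own animal, so p-values measure the spread between these samples. No pair of libraries of a group agreed within sampling noise (chi-square per degree of freedom at least 22.8). The script was tested on simulated data. Python 3.11.15 with pandas 2.3.3 made the tables.

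The members and gene lists were chosen with earlier results of these data known. Named genes are the 9 members, up to 4 genes of each list with the smallest p in DSS against Con, further adhesion and marker genes whatever their p (among them Ptprc, Pecam1, Cdh5, Itgax, Itga4 and Itgb7), and for each member the 3 genes of most similar pattern. Of the genes the rule takes, those that bear on the members are printed, and some are not reported here. Alternatives were DESeq2 1.42.0, limma-voom (limma 3.58.1), scaling by library size or by upper quartiles, fitting unfiltered counts or only genes with 10 or more counts in all samples, fitting just the 2 groups of a comparison, a replicate block, the colon position score as covariate, and leaving out each library.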

Additional observations from a re-analysis of the deposited data

How the results depend on the processing

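All 9 members stayed raised in DSS against Con under every alternative run, Sele being left out of the fit that required at least 10 counts in every sample. UA+DSS against DSS called 9 members, but 0 with the position score and 5 when just these groups were fitted, and 1 to 9 with a library left out. DSS+UA against DSS called 6, but 3 with limma-voom, 2 with no filter, 2 with the replicate block, 1 with the position score, 1 with only the groups compared, and 0 to 7 with a library left out. UA+DSS against Con called 0, but 2 with DESeq2, and 0 whichever library was left out. DSS+UA against Con called 5, all of the vessel side, but 3 with library size or upper-quartile scaling, 2 with limma-voom, 3 with no filter, 3 with the replicate block, 0 with the position score and 1 to 9 with a library left out. The vessel count was 3 with only the groups compared, where Sele was not tested, and 1 to 5 with a library left out. The leukocyte count of 0 was 2 with DESeq2, 4 with only the groups compared and 0 to 4 with a library left out, 4 being the value without DSS 2. Among the differences between the UA groups, none of them called, Vcam1 (-0.46), Madcam1 (-1.02) and Selp (-0.088) changed sign with the position score, and Selp without UA+DSS 1 (-0.033 to 1.15 over the libraries left out). The causes were not tested.

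Replicate numbers did not pair the samples. Over 18 pairs of libraries with the same number in different groups, deviations from the group means correlated at -0.216 to 0.187, with 5 over 0.1, beside 8 of 36 pairs with other numbers. With the replicate block the genes called in DSS+UA against DSS fell from 1331 to 552.

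With library size alone the all-gene median on the log2 scale shifted by -0.134 in DSS+UA against DSS, and the split of 448 raised and 883 lowered genes became 140 and 1003. In DSS+UA against Con it went from 1613 and 1580 to 1035 and 1557, and to 1192 and 1880 with upper-quartile factors. Over all genes, UA+DSS against Con called 1, and 374 with DESeq2, and DSS+UA against DSS called 1331, but 3107 with DESeq2, 882 with no filter, 430 with only the groups compared and 199 with the position score. With that score UA+DSS against DSS went from 3300 to 3 and DSS+UA against UA+DSS from 2961 to 0. Fitting only the groups compared gave 2131 in place of 4688 for DSS against Con, 2072 for UA+DSS against DSS and 2035 in place of 3193 for DSS+UA against Con. Leaving out UA+DSS 2 gave 183 for UA+DSS against DSS, and leaving out DSS+UA 3 gave 25 for DSS+UA against DSS. Within DSS the libraries spread up to 8.42-fold (Selplg), and the Sele values in Con rest on 2 counts.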

Other observations

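The genes whose log2 CPM followed each member most closely over the 12 libraries, among 13705 genes averaging a log2 CPM of 1 or more, differed between the sides. These correlations describe the same 12 libraries and 4 groups and have no test. Itgal ran closest to Ptprc (r = 0.990), and Itgb2 to Cd53 (r = 0.993), both surface proteins of leukocytes in general, followed by Ccr1 (r = 0.991), a chemokine receptor of myeloid cells. Selplg ran closest to Lcp2 (r = 0.985), a signalling adaptor of blood cells, and Itgam to Msn (r = 0.988). Icam1 ran with Lrrc25 (r = 0.996) and with Csf2rb (r = 0.992), a cytokine receptor chain of myeloid cells, and its correlation with the leukocyte members (0.965 to 0.987) was above that with the other vessel members (0.811 to 0.895).

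The other vessel genes had neighbours of another kind. Sele ran closest to Timp1 (r = 0.966), an inhibitor of matrix proteases, and to Cemip (r = 0.957), a hyaluronan-degrading protein, Selp to the matrix protease Adamts9 (r = 0.966), and Vcam1 ran with Lbp (r = 0.976) and the matrix protease Adamts4 (r = 0.963). Madcam1 ran closest to Sema6b (r = 0.966). Sele and Selp, neighbours on chromosome 1, correlated at 0.974.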
